A study of Mus musculus with 6 samples.

Results

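The creatine kinase system and myoglobin were examined in ventricles of E9.5 mouse embryos, WT or with knockdown of Tbx5ua, the long noncoding RNA transcribed away from the Tbx5 promoter. The rows of the deposited table with 1 of 8 gene symbols were taken: Ckm, Ckb, Ckmt1, Ckmt2, Mb, Slc6a8, Gatm and Gamt. All 8 were found among 23284 genes. The WT group was 3 ventricle samples of the C57BL/6 strain labelled wild type, and the KD group was 3 samples of the same strain and stage labelled Tbx5ua -/-. Both groups were tetraploid chimeras, in which the embryo proper grows from the injected ES cells. In the KD ES cells both Tbx5ua alleles carried tandem polyadenylation sites in the second exon, which stop transcription early, and such lines are clonal. Which of the study's KD lines gave these embryos is not stated in the sources used here. Tbx5ua itself was not analysed here, so the knockdown was not checked from these values. The study reports from qRT-PCR that Tbx5ua was strongly reduced in KD embryos at E9.5.

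Creatine kinases move a high-energy phosphate between ATP and creatine, so that phosphocreatine can buffer ATP where it is spent. The cytosolic subunits are Ckb (brain type) and Ckm (muscle type), and the mitochondrial subunits are Ckmt1 (ubiquitous type) and Ckmt2 (sarcomeric type). Muscle is known to move from the brain type to the muscle type as it matures. Gatm and Gamt make creatine in sequence, Slc6a8 carries it into cells, and myoglobin (Mb) binds oxygen in the cytoplasm of heart and skeletal muscle.

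Among the 7 members with at least 1 FPKM in either group, myoglobin was the one whose group values differed by at least 1.5-fold, and it was higher in KD. Ckmt1, listed below 1 FPKM in both groups, had a 2.93-fold ratio that is not counted. Mb had 13.7 FPKM in WT against 25.2 FPKM in KD, a 1.84-fold difference. Ckb, by far the most abundant creatine kinase mRNA, had 696 FPKM in WT against 614 FPKM in KD, 1.13-fold lower in KD. Gamt, Ckmt2 and Slc6a8 lay within 1.12-fold of WT, and Gatm and Ckm were 1.28-fold and 1.48-fold higher in KD. Each number here is 1 value for the 3 embryos of a group, computed by the authors in FPKM, fragments scaled to transcript length and to the size of the library. The table holds no values of single embryos and no read counts, so no SD or interval was computed and no test was run here from these values. The test columns of the authors' own comparison were not used, and the depth of the libraries is unknown. A difference is therefore a description of 2 pooled values, and it is read against the spread over all genes.

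**Figure D1:**
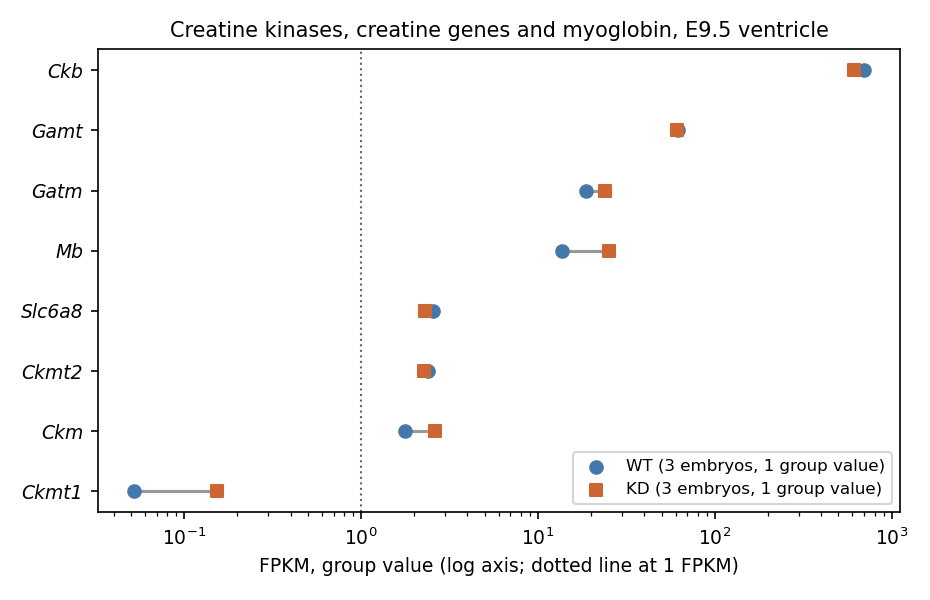
Group values of the 8 members in WT (circles) and KD (squares), in FPKM on a log axis, ordered by the WT value; each symbol is 1 value for 3 embryos, so no error bar can be drawn. Mb shows the widest gap on this log axis (the ratio) among members above 1 FPKM, 13.7 against 25.2 FPKM, and Ckmt1 lies below 1 FPKM in both groups.

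For this reading a gene was counted as measurable with at least 1 FPKM in either group and a value above 0 in both, which held for 7 of the 8 members and for 11548 genes of the table. Among measurable genes 4.62% were at least 1.5-fold higher in KD, 3.10% were at least 1.5-fold lower, and 7.72% passed in either direction. Of the 7 measurable members, 1 was at least 1.5-fold higher and 0 were lower. A share of 1 in 7 rests on a single gene, so nothing is read from it about the members together. With a limit of 25% above WT, or the same factor below, 3 of the 7 members (Mb, Ckm and Gatm) were higher and 0 were lower, where 12.4% of measurable genes were higher, 9.44% lower and 21.8% either. The median log2 ratio of KD to WT was -0.03 over the 7 members and 0.00 over all measurable genes (0.0049), with 3 members above 0 and 4 below. The members thus had no common direction.

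The spread of the ratios depends on the level of a gene. Among genes with a mean of both groups from 1 to below 5 FPKM, the log2 ratios at the 5th and 95th percentiles were -0.66 and 0.78. From 5 to below 50 FPKM they were -0.34 and 0.40, and from 50 FPKM upwards -0.23 and 0.26. Mb, with a log2 ratio of 0.88, lay above the 95th percentile for its level. Ckm, with 0.56, lay inside the range for its lower level, as did Ckmt2 and Slc6a8. Gatm, with 0.36, Gamt, with -0.03, and Ckb, with -0.18, were also inside the range for theirs.

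**Figure D2:**
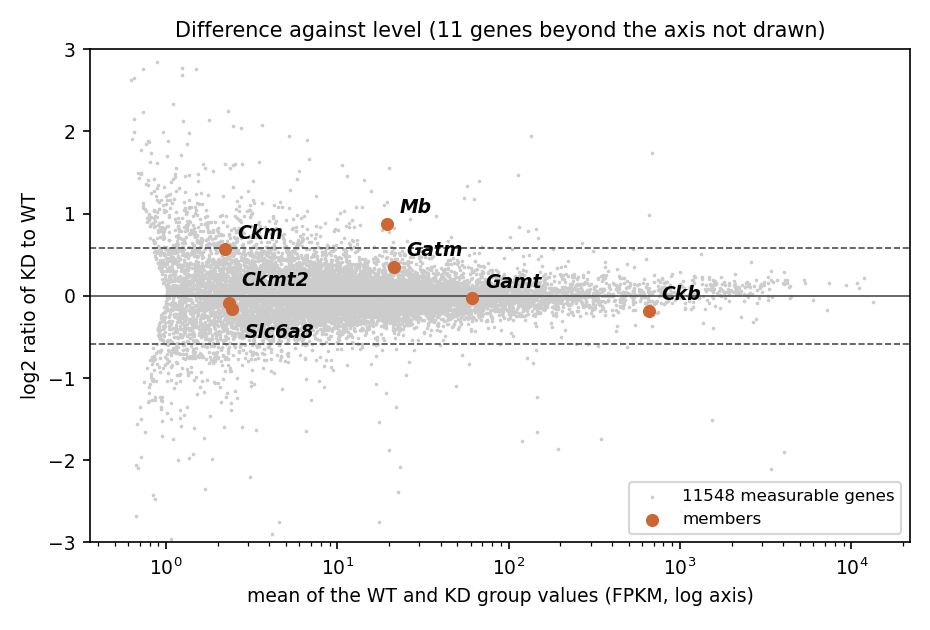
Log2 ratio of KD to WT against the mean of both group values (FPKM, log axis) for 11548 measurable genes (grey) and the 7 measurable members (orange); dashed lines mark 1.5-fold. Mb stands above the upper line at a log2 ratio of 0.88, Ckm lies just under it at 0.56, and Ckb, the most abundant member, lies at -0.18.

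The promoters of Ckb, Ckm and Mb are shown because the results turn on these genes: the prevailing and the scarce cytosolic kinase, and the measurable member whose ratio of KD to WT lay farthest from 1. Each RefSeq window (GRCm38.p6) runs from 250 bases before the start site to 50 bases after it, 5′ to 3′ on the strand of the gene. RefSeq windows were at hand for 7 members. Capitals mark matches on either strand to the E-box CANNTG, the TATA box TATAAA, the T-box half-site AGGTGT, the MEF2 site (CTA, any 4 bases, then TAG), the CArG box and the CCAAT box. The Ckb window is chr12:111672289-111672588 (minus strand), the Ckm window chr7:19410844-19411143 (plus strand) and the Mb window chr15:77022738-77023037 (minus strand).

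Ckb: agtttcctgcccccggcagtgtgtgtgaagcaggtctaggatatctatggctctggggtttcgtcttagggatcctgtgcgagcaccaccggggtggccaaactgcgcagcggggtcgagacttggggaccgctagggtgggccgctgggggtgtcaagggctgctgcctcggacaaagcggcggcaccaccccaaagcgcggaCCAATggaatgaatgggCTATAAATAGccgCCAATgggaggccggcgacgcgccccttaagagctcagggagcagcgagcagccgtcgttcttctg

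Ckm: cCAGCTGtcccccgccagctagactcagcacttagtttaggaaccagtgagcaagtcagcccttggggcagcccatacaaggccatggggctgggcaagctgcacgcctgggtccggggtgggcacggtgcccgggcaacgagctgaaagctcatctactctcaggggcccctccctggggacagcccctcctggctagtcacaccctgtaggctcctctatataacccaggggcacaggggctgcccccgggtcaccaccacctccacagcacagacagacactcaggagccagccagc

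Mb: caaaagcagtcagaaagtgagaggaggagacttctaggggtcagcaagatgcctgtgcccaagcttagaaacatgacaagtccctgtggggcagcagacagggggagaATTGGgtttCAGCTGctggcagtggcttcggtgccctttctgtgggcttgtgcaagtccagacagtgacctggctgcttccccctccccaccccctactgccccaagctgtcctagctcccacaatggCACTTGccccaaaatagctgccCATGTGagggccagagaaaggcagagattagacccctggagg

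The Ckb window held 1 TATA box beginning 28 bases before the start site, inside 1 MEF2 site that begins 29 bases before it, so the 2 matches share their letters. It also held 2 CCAAT boxes and 0 E-boxes. The Ckm window held 1 E-box and 0 matches to the other motifs. The Mb window held 3 E-boxes and 1 CCAAT box. The T-box half-site had 0 matches in these 3 windows and was found in 1 of 2 Ckmt1 windows and in the Ckmt2 window, where it overlaps an E-box by letters. RefSeq gives Mb 2 further start sites, whose windows held 4 and 2 E-boxes. The window with 4 overlaps the printed Mb window and includes its 3 E-boxes. Of 32544 windows of that length, 72.3% held an E-box, 37.4% a CCAAT box, 13.8% a T-box half-site, 13.6% a TATA box, 3.70% a MEF2 site and 1.64% a CArG box. A match is a description of letters in this window only.

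Next in order of level after Ckb came Gamt in both groups, then Gatm in WT, while in KD Mb stood above Gatm. Gamt, the methyltransferase that makes creatine from guanidinoacetate, had 61.8 FPKM in WT against 60.8 FPKM in KD, a log2 ratio of -0.03. It lies on chromosome 10 from 80258151 to 80261012 (GRCm38, GENCODE M21, minus strand). In both groups it was more abundant than 85% of measurable genes (85.3% in WT and 85.2% in KD). The table gives Gamt a locus of 672 kb shared with 45 other genes, although 0 of its 1444 annotated exonic bases overlap another gene. Of these neighbours 32 were measurable, with a median log2 ratio of 0.15 and 1 of them at least 1.5-fold higher in KD.

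Gatm, the amidinotransferase that makes guanidinoacetate from arginine and glycine, lies on chromosome 2 from 122594467 to 122611303 (minus strand). It had 18.8 FPKM in WT against 24.0 FPKM in KD, which was 5.26 FPKM or 1.28-fold higher. Of genes with 0.5 to 2 times its mean level, 5.81% were at least 25% higher in KD. Its exons overlap 0 bases of other annotated genes. The level of Gamt over that of Gatm was 3.30 in WT and 2.53 in KD.

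Slc6a8, the creatine transporter, lies on chromosome X from 73673150 to 73682502 (plus strand). It was low, with 2.57 FPKM in WT against 2.29 FPKM in KD, 1.12-fold lower in KD. Both enzymes of synthesis were thus more abundant, per length, than the transporter. Gatm was 7.31 times Slc6a8 in WT and 10.5 times in KD, and Gamt was 24.1 times Slc6a8 in WT and 26.5 times in KD.

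Ckb accounted for nearly all creatine kinase mRNA in both groups. Of the summed level of the 4 creatine kinase genes Ckb made up 99.4% in WT and 99.2% in KD. Ckb lies on chromosome 12 from 111669361 to 111672338 (minus strand). It exceeded 97.9% of measurable genes in WT and 97.7% in KD. In absolute terms it had the widest difference of the members, KD minus WT being -82.4 FPKM, with a log2 ratio of -0.18.

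Ckm, the muscle type, lies on chromosome 7 from 19404776 to 19422841 (plus strand). It had 1.78 FPKM in WT against 2.63 FPKM in KD, so Ckb was 392 times as abundant in WT and 234 times in KD. Its share of creatine kinase mRNA was 0.254% in WT and 0.425% in KD. The 1.48-fold difference amounts to 0.851 FPKM, and of genes with 0.5 to 2 times the mean level of Ckm 22.2% were at least 25% higher in KD. The longest run of bases shared by annotated Ckb and Ckm transcripts is 20, and the read length of these libraries is not given in the sources used here. An annotated antisense gene, A930016O22Rik, overlaps 15.5% of the exonic bases of Ckm.

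The mitochondrial kinases were scarce. Ckmt2, the sarcomeric type that sits between the mitochondrial membranes of heart and muscle, lies on chromosome 13 from 91853387 to 91876885 (minus strand). It had 2.39 FPKM in WT against 2.26 FPKM in KD, 1.06-fold lower in KD, and made up 0.342% and 0.366% of creatine kinase mRNA. Ckmt2 was 1.35 times Ckm in WT and 0.861 times Ckm in KD, so their order differed between the groups, within ratios that are wide at this level. Ckmt1, the ubiquitous type, lies on chromosome 2 from 121357714 to 121363737 (plus strand). It was listed at 0.0522 FPKM in WT against 0.153 FPKM in KD, under the 1 FPKM limit in both groups, so its 2.93-fold ratio is not counted. It shares its locus in the table with Strc, which was listed at 0 in both groups.

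By level the members ran in WT from Ckb through Gamt, Gatm, Mb, Slc6a8, Ckmt2 and Ckm to Ckmt1. In KD the values of Mb and Gatm, 25.2 and 24.0 FPKM, stood in the opposite order, and Ckm, with 2.63 FPKM, stood above Slc6a8 and Ckmt2. Slc6a8, Ckmt2 and Ckm lay between 1.78 and 2.63 FPKM in the 2 groups together. Without values of single embryos, neighbours in this order cannot be told apart beyond their spread.

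Myoglobin, the oxygen-binding protein of heart and skeletal muscle, lies on chromosome 15 from 77015487 to 77050670 (minus strand). Its value was 11.5 FPKM higher in KD. It exceeded 58.4% of measurable genes in WT and 71.5% in KD. Of the 3343 genes with 0.5 to 2 times its mean level, 43 (1.29%) were at least 1.5-fold higher in KD. Ckb was 50.8 times as abundant as Mb in WT and 24.4 times in KD. Mb shares its locus in the table with Apol6, an apolipoprotein L family gene on the opposite strand, which had 0.554 FPKM in WT against 0.314 FPKM in KD. Of the 1492 annotated exonic bases of Mb, 64 overlap Apol6 and 412 overlap the antisense gene Gm49540, which has no row in the table. Whether counting used strand is not stated, and Smart-Seq2 libraries do not mark it, so over these 476 bases (31.9% of the exonic bases of Mb) reads of the opposite strand cannot be told apart from those of Mb.

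The ratio of KD to WT was higher for myoglobin than for each of the cardiomyocyte markers. In a list of 14 cardiomyocyte markers, 0 were 1.5-fold higher or lower, beside 4.62% and 3.10% of all measurable genes. With so few genes nothing is read from that count. The log2 ratios ran from -0.25 to 0.22 with a median of -0.04. Most of these markers were above 50 FPKM, where the 5th and 95th percentiles of all genes were -0.23 and 0.26. At the level of Mb they were -0.34 and 0.40, so part of the contrast in spread goes with level. Myl7, the atrial regulatory myosin light chain and the highest of the list, had 13643 FPKM in WT against 12907 FPKM in KD. Relative to each of the 14 markers the Mb level was between 1.58 and 2.18 times as high in KD as in WT. The level of Mb over that of Tnnt2 (cardiac troponin T) was 0.00743 in WT and 0.0139 in KD. In bulk tissue, more or fewer cells of a type and more or less RNA per cell cannot be told apart. The summed level of the 14 markers was 45076 FPKM in WT against 46243 FPKM in KD, to which the genes contributed very unequally. Ttn had 9.49 FPKM in WT against 8.62 FPKM in KD, and Ryr2 4.42 and 4.12 FPKM.

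Markers of other cell types were read beside these values. All 7 epicardial markers were measurable and higher in KD, 6 of them at least 1.5-fold, where 4.62% of all measurable genes were. Of these 6, Aldh1a2 (0.872 FPKM in WT, 1.74 FPKM in KD) and Bnc1 (0.439 and 1.62 FPKM) were measurable only through their KD values. The summed level of the 7 was 47.5 FPKM in WT against 97.5 FPKM in KD. Wt1, the top gene of that list among WT values, stood at 13.8 FPKM in WT against 19.2 FPKM in KD, and Tcf21, the highest in KD, 11.9 and 25.5 FPKM. Of 12 skeletal muscle markers 3 were measurable, and 7, among them the lineage factors Myod1 and Myog, were listed at 0 in both groups. The list summed to 158 FPKM in WT against 181 FPKM in KD, and Mylpf, the highest, had 90.9 and 92.0 FPKM. The 10 erythroid markers summed to 11464 FPKM in WT against 11540 FPKM in KD, with Hba-x, an embryonic alpha-type globin, at 4401 and 4318 FPKM. Epb42 was the 1 gene of that list past 1.5-fold, 1.83-fold lower with 1.17 FPKM in WT against 0.641 FPKM in KD. It was measurable only through its WT value, and 3.10% of all measurable genes were at least 1.5-fold lower. The 8 endocardial markers summed to 155 FPKM in WT against 170 FPKM in KD, with Emcn highest at 43.1 and 57.4 FPKM. Of these 8 markers 0 passed 1.5-fold, where 7.72% of all measurable genes did in either direction. Of 8 neural markers 2 were measurable, Tubb3 with 12.2 FPKM in WT against 26.9 FPKM in KD and Elavl4 with 1.38 and 0.773 FPKM, while Sox2, Neurog1 and Neurod1 were listed at 0. The part of these cell types in the Mb or Ckb values was not tested.

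The other genes of phosphate transfer, creatine precursors and oxygen binding were taken from 5 lists of 54 genes, of which 49 had a row and 37 were measurable. At least 1.5-fold higher was 1 of the 37, and 2 were at least 1.5-fold lower, beside 4.62% and 3.10% of all measurable genes. The higher gene, Hbb-bs, and 1 of the 2 lower, Hbb-b2, are adult-type globins whose values are uncertain. A joint row that holds Hbb-b2 was higher in KD, as given below, and nothing is read from so few. Of 11 measurable adenylate kinases and AMPK subunits, which share out and sense adenine nucleotides, 0 passed 1.5-fold. Their median log2 ratio was -0.10, with 8 of 11 below 0. Of 7 measurable genes for nucleotide and phosphate exchange at the mitochondrion, 0 passed, with log2 ratios from -0.12 to 0.03. Slc25a4, the muscle ADP/ATP carrier, had 2515 FPKM in WT against 2570 FPKM in KD. Of 6 measurable regulators of mitochondrial energy genes 0 passed. Tfam, which packs mitochondrial DNA and takes part in starting its transcription, had 21.5 FPKM in WT against 17.9 FPKM in KD.

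**Figure D3:**
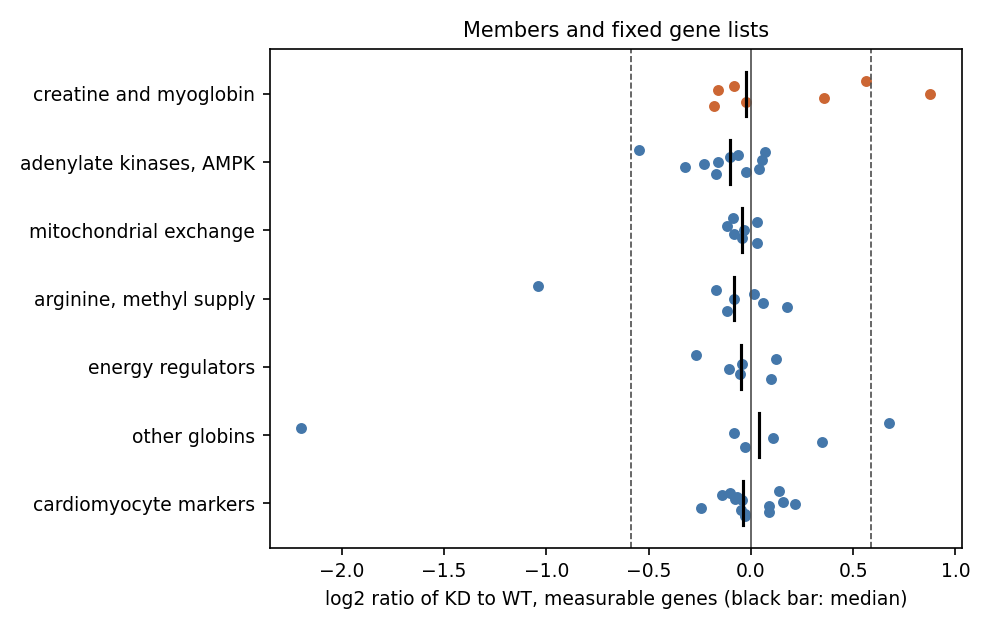
Log2 ratios of KD to WT of the measurable members (orange) and of the measurable genes of 5 pathway lists and the cardiomyocyte markers (blue); black bars are medians and dashed lines mark 1.5-fold. Mb at 0.88 lies outside the range of the cardiomyocyte markers, -0.25 to 0.22. Most of these markers are at higher levels than Mb, where ratios spread less.

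Of 7 measurable genes that supply arginine or methyl groups for creatine, 1 passed. Gnmt, which methylates glycine and so uses the same methyl donor as Gamt, was 2.06-fold lower in KD, with 2.18 FPKM in WT against 1.06 FPKM in KD, a level at which ratios are wide. Mat2a, which makes that donor, had 129 FPKM in WT against 122 FPKM in KD. Of 6 measurable globins other than myoglobin, Hbb-bs (under its older name Beta-s) was 1.59-fold higher in KD, with 34.0 and 54.2 FPKM. Hbb-b2 was listed 4.59-fold lower, with 5.05 FPKM in WT against 1.10 FPKM in KD, but a joint row for Hbb-b1 and Hbb-b2 at the same locus had 6.06 FPKM in WT against 16.6 FPKM in KD. Reads of such near-identical copies may be split between rows, so these adult-type globin values are uncertain. Ngb (neuroglobin) was listed at 0 in both groups, and Cygb (cytoglobin) at 0.212 FPKM in WT against 0.321 FPKM in KD.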

How the data were processed

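Total RNA (10 ng a sample) of ventricles at E9.5 was made into Smart-Seq2 libraries, with 12 cycles of preamplification and 9 of enrichment PCR. The authors deposited 1 table with 2 columns of FPKM, 1 per group of 3, the KD column under the name KO. TopHat, Bowtie2 and Cuffdiff with build mm10 are named in the submitters' processing notes, without versions. The fold changes, test statistics, p-values and q-values of the authors' own comparison, also in the table, were not used. There were 0 columns of single samples, and low values showed no steps of whole reads.

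KD was divided by WT with no pseudocount, and the fold limit was 1.5, with a second limit of 25%. Named genes were the 8 members, pathway-list genes past 1.5-fold, and the highest gene in WT of each list, except 1 that is not reported here; others were named after their values were seen. Members and lists were chosen with earlier results of these data known. Gene positions are those of GENCODE M21. Python 3.11.15, NumPy 2.4.6, pandas 2.3.3 and Matplotlib 3.10.9 were used.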

Additional observations from a re-analysis of the deposited data

How the results depend on the processing

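No paired analysis was possible because each group has a single pooled value, and leaving out each replicate was not run for the same reason. Of the 7 measurable members 1 passed 1.5-fold. With a limit of 25% above WT, or the same factor below, it was 3 (all higher), and with 2-fold it was 0, where 1.44% of measurable genes were higher and 0.970% lower. With no filter other than above 0 it was 2 of 8, both higher (Ckmt1 entered), where 11.8% of genes were higher and 9.35% lower. Without genes that share a table locus, an alternative chosen after seeing the data, it was 0 of 5, since Mb shares one with Apol6, and 4.59% of genes were higher and 2.85% lower. It remained 1 under the other alternatives, where the share of all genes past the limit differed. With a pseudocount of 1 FPKM 1.96% were higher and 1.22% lower. With at least 5 FPKM in either group, which left 4 members, 1.78% were higher and 1.14% lower. With at least 1 FPKM in both groups 2.99% were higher and 2.02% lower. The median log2 ratio of the members, -0.0253, was -0.0248 with a pseudocount of 1 FPKM, -0.0559 with FPKM rescaled to one sum of 1000000 a group, 0.1657 with at least 5 FPKM in either group (4 members) and again 0.1657 with no filter, and -0.0815 without shared loci, so its sign depends on which members enter. The 3 pathway genes past 1.5-fold (1 higher, 2 lower) became 6 at the 25% limit (2 higher, 4 lower) and 8 with no filter (6 higher, 2 lower, of 47). With at least 5 FPKM, 1 was higher and 1 lower, Hbb-bs and Hbb-b2, the adult-type globins whose values are uncertain. Without shared loci 1 was again higher and 1 lower, and no direction is read from these counts. With a pseudocount of 1 FPKM the Ckb share was 99.0% in WT and 98.7% in KD. The log2 ratio of Mb lay between 0.83 and 0.87 under 4 alternatives of scaling and pseudocount. That of Ckm lay between 0.39 and 0.56, and that of Ckmt1 between 0.13 and 1.55. The depth is unknown, so what it limits among the low members cannot be stated.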

Other observations

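Of the 12 skeletal muscle markers, 2 troponin subunits and Mylpf were measurable, while the lineage factors Myod1, Myog, Myf5 and Myf6 and the myosin heavy chains Myh2, Myh3 and Myh8 were listed at 0 in both groups. Of the fast myosin heavy chains, Myh1 was listed at 0.00627 FPKM in WT against 0.00113 FPKM in KD, and Myh4 at 0.0530 FPKM in WT and 0 in KD. These genes were named after their values were seen. Tnni2, the fast skeletal troponin I, had 54.9 FPKM in WT against 79.1 FPKM in KD, a log2 ratio of 0.53. Tnnt3, the fast skeletal troponin T, had 12.3 FPKM in WT against 10.0 FPKM in KD.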
